A study of Mus musculus with 4 samples.

Results

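Histones and DNA carry chemical marks that are placed by writer enzymes and removed by erasers, and the genes for these enzymes are described here in the cerebellum of mice that carry 1 knockout copy of Arid1b. Arid1b encodes a DNA-binding subunit of BAF, a complex that moves nucleosomes along DNA. Members were taken by gene symbol from the deposited count table, as the symbols that begin with Kmt, Kdm, Setd, Hdac, Ezh, Ehmt, Nsd, Suv, Kat, Sirt, Prdm, Tet or Dnmt followed by a digit. Of 88 such symbols, 3 were left out by name (Kdm5c, Kdm5d and Kdm6a) and 4 had under 10 counts in all libraries together, which left 81 genes of the 24015 in the table. They comprised 41 writers, 33 erasers and 7 genes of DNA methylation. Just inside the limit were Dnmt3l with 11 counts and Prdm1 with 25, and just outside it were Prdm12 and the antisense transcript Dnmt3aos with 1 count each and Prdm13 and Prdm14 with none.

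Lysine methyltransferases and acetyltransferases add methyl and acetyl groups to histone tails. Lysine demethylases, zinc-dependent deacetylases and sirtuins, which use NAD, take them off again. DNA methyltransferases methylate cytosine, mostly in CG pairs, and TET enzymes oxidise that methyl group. The symbols name families rather than proven activities. Most PR domain (Prdm) proteins act as DNA-binding transcription factors, Setd3 methylates actin, and Sirt3, Sirt4 and Sirt5 lie in mitochondria.

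The groups were adult mice heterozygous for the Arid1b knockout (labelled HT) and wild type littermates (labelled WT), all of strain C57BL/6N and taken at postnatal days 140 to 150, with 1 male and 1 female library per genotype. The sources used here do not say how the knockout was made or which part of the gene it removes. Cerebellum was dissected and poly(A) RNA sequenced as strand-specific single-end reads in 1 lane. The 4 libraries held 15950899 to 20616219 counts. Since the labels do not name separate animals, the spread behind each p-value is that of these libraries only. In edgeR it was in large part borrowed across genes, so it is not each gene's own replicate spread.

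Arid1b itself stood at 52.9 CPM (the usual library-scaled unit, the gene's count relative to the library's total) in the male HT and 55.8 in the female HT, against 69.9 in the male WT and 71.0 in the female WT. Both HT libraries were below both WT libraries, with a log2 fold change (HT over WT) of -0.37 ± 0.11 (SE; edgeR quasi-likelihood test, adjusted p = 0.243). All 20 granule cell markers had counts in every library and summed to 5906.84 and 6510.29 CPM in HT against 7477.32 and 8639.75 in WT. All 20 had a log2 fold change below 0 (median -0.41, and -0.25 without the female WT library). Endothelial and mural cell markers, with 20 of 20 below 0, summed to 416 and 375 CPM in HT against 434 in the male WT and 637 in the female WT, and their median was -0.50 with the female WT library and -0.21 without it. Purkinje cell markers, with 21 of 25 below 0, summed to 8683 and 8169 CPM in HT against 9068 in the male WT and 10503 in the female WT, with a median of -0.23, and -0.16 without the female WT library. Oligodendrocyte markers had 19 of 21 above 0 (median 0.16), summing to 16955.5 and 15886.3 CPM in HT against 14544.8 and 15263.1 in WT. Choroid plexus markers, with 16 of 18 above 0, summed to 2832.8 CPM in the male HT and 1654.33 in the female HT, against 1565.24 and 1566.73 in WT. Microglia markers summed to 283 CPM in the male HT and 194 in the female HT, against 201 in the male WT and 223 in the female WT, and the median log2 ratio was -0.27 between the females and 0.47 between the males. Markers of brainstem and midbrain neurons had 16 of 20 above 0 (median 0.66, and 0.33 without the female WT library) and those of meningeal fibroblasts 14 of 16, while those of astrocytes and Bergmann glia had 12 of 18 below 0 and those of interneurons 8 of 16. The part of these markers in the results on the modifying enzymes was not tested, and in bulk tissue fewer cells of a type and less RNA per cell cannot be told apart. The female WT library stood apart from the others: the chi-square per gene of a library pair was 17.0 to 28.3 where that library took part and 6.13 to 14.2 elsewhere. This measure grows with depth, and the female WT library was the deepest at 20616219 counts, with the male HT at 20287016. The part of depth was not tested. The fits without the female WT library have genotype as the only term.

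Levels of the enzymes spanned a wide range. Per kilobase of the longest annotated transcript, the mean level over the 4 libraries ran from 0.062 CPM for Prdm1 to 121 CPM for Hdac11, with a median of 9.45. Hdac11, the single class IV deacetylase, averaged 129 CPM per kilobase in HT and 114 in WT. Sirt2, a largely cytoplasmic sirtuin known from myelin, was next at 98.7 CPM per kilobase in HT and 91.0 in WT. Setd3 led the lysine methyltransferases at 61.4 in HT and 57.8 in WT, and Kat5, the catalytic subunit of the Tip60 acetyltransferase complex, led the acetyltransferases at 47.3 in HT and 46.0 in WT. Kdm1a, the flavin-dependent demethylase of the CoREST complex, led the demethylases at 22.9 in HT and 23.5 in WT.

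The paralogues Ezh1 and Ezh2, alternative catalytic subunits of the H3K27 methyltransferase PRC2, differed widely in level. Ezh1 stood at 23.2 CPM per kilobase in HT and 24.5 in WT, and Ezh2, the form of dividing cells, at 2.67 in HT and 2.78 in WT. Among the DNA methyltransferases the maintenance enzyme Dnmt1 stood at 12.9 in HT and 13.3 in WT and the de novo enzyme Dnmt3a at 10.5 in HT and 12.5 in WT, while the other de novo enzyme, Dnmt3b, stood at 0.548 in HT and 0.788 in WT. The TET enzymes were ordered Tet3, Tet2 and Tet1, with 4.23, 2.80 and 1.202 CPM per kilobase in HT against 5.47, 3.07 and 1.66 in WT. The PR domain family was the lowest of the writer families, with a median of 1.36 CPM per kilobase, led by Prdm2 (9.63 in HT and 9.95 in WT), against a median of 10.9 in the lysine methyltransferases and 20.99 in the acetyltransferases.

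**Figure D1:**
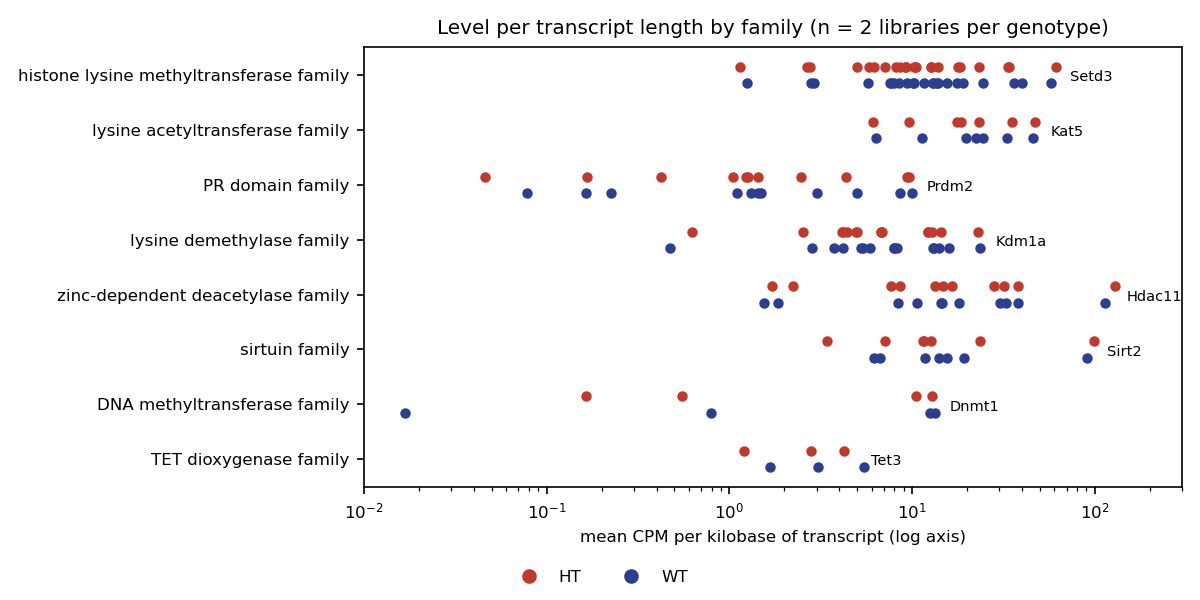
Mean CPM per kilobase of transcript (log axis) of the 81 genes by family, with HT means above WT means in each row and n = 2 libraries per genotype. The gene named in each row has the highest level of its family, such as Hdac11 at 121 over all libraries, and the widest gap between genotypes is that of Dnmt3l, which rests on 11 counts.

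Most of the genes have promoters rich in CG pairs, the sequence that the DNA methylation enzymes act on. RefSeq promoter windows of 300 bases (250 before to 50 after the start, GRCm38.p6, a later build than the mm9 of the counts) were found for 65 of the 81 genes, taking the window with most CG where there were several. The motif counted was CG, which reads the same on both strands. The windows held 1 to 65 CG with a median of 27, against a median of 21 over 11694 tested genes, and 54 of 65 (83.1%) held at least 15, against 71.1% of all tested genes. The median level was 8.63 CPM per kilobase for these 54 genes and 12.6 for the 11 with fewer. The windows printed here are those of Sirt1, the gene with the lowest fold change, Kmt2d, the lowest of the Kmt2 genes, and Dnmt3l, the catalytically inactive partner of the de novo methyltransferases and nearly silent here, with CG in capitals. The windows hold 47, 27 and 6 CG in that order and lie at chr10:63338986-63339285 (minus strand), chr15:98871156-98871455 (minus strand) and chr10:78042037-78042336 (plus strand).
Sirt1: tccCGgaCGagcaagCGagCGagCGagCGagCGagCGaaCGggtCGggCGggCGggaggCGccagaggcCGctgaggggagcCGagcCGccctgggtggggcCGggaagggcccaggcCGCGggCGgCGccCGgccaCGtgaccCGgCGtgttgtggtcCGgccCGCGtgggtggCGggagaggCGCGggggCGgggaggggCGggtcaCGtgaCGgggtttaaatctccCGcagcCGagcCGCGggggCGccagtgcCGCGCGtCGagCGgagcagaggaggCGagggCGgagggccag
Kmt2d: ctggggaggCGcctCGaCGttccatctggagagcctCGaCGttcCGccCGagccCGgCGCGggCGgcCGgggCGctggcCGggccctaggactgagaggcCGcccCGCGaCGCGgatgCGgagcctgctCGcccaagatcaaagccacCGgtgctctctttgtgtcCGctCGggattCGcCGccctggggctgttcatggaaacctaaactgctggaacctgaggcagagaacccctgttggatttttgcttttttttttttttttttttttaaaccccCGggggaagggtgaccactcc
Dnmt3l: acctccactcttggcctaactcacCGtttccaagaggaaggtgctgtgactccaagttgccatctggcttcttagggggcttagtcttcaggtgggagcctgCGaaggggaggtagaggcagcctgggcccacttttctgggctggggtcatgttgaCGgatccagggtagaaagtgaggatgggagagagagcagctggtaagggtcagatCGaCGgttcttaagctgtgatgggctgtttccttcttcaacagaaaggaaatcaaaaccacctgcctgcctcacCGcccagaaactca

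Across the members, no gene passed the test between genotypes (edgeR quasi-likelihood test, adjusted p under 0.05), where 3 of 15117 tested genes (0.0198%) were called, all higher in HT (0.0198%) and none lower (0%). DESeq2 and limma-voom also called 0 members at that threshold. Of the 81 genes, 79 had enough counts to be tested, all but Prdm1 and Dnmt3l. Of the 79, 58 had a log2 fold change below 0 and 21 above it, where 48.9% of all tested genes were below 0. The median was -0.11, against 0.01 over all tested genes. At an unadjusted p under 0.05 there were 16 members (20.3%), 15 lower and 1 higher in HT, where all tested genes gave 11.7%, with 6.46% lower and 5.22% higher. DESeq2 gave 5 of 79 members at that level, all lower, against 4.79% of all genes. In 32 members (40.5%) both HT libraries were below both WT libraries and in 8 (10.1%) both were above, against 22.6% and 22.1% of all tested genes.

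These shares depended on single libraries. The median of the tested members was -0.05 without the male HT and -0.18 without the female HT, and the share of members below 0 was 63.3% without the female WT library, against 73.4% with it. Some alternatives did call members, and those called were lower in HT except where stated. The edgeR likelihood ratio test called 2 (Sirt1 and Kat2b), where it called 1.1% of all genes. DESeq2, which called no member, called 0.317% of the genes to which it gave an adjusted p. Without the low-count filter 4 members were called (Sirt1, Kat2b, Kmt2d and Kmt2c) with 2.92% of all genes. Without the male WT library 15 members were called, 3 of them higher, with 17.5% of all genes, and without the female WT library 9 were called, with 4.3% of all genes. In such fits the spread comes from the genotype that keeps 2 libraries.

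**Figure D2:**
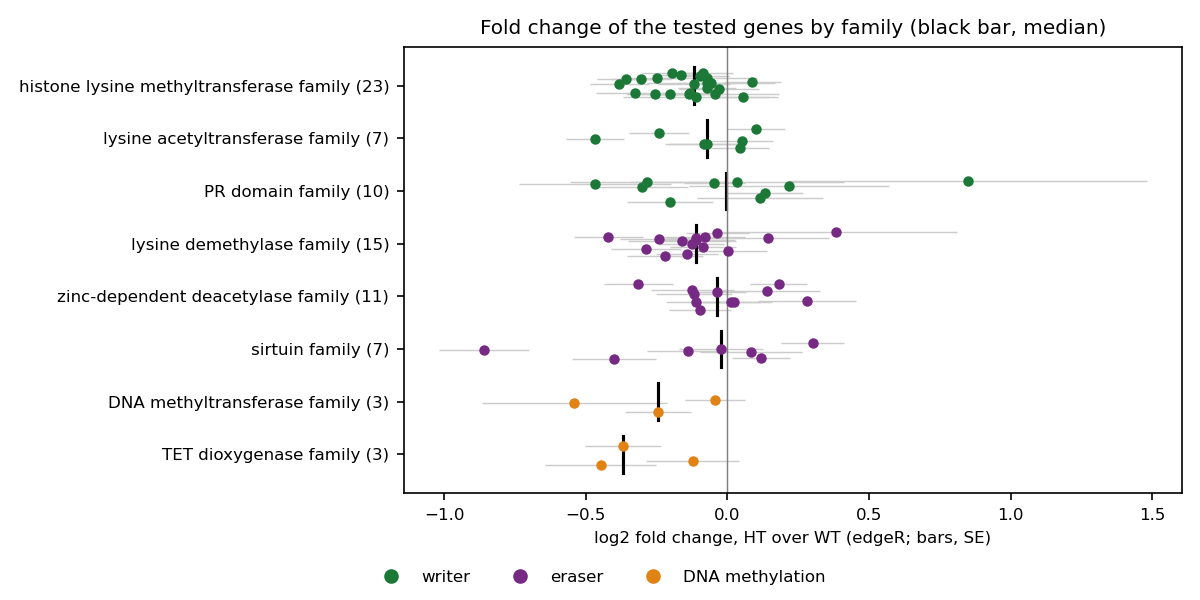
Log2 fold change of HT over WT (edgeR, bars are SE) for the 79 tested genes by family, with the number of genes in brackets and a black bar at the family median. The medians lie below 0 in every family, from -0.37 in the TET dioxygenases to -0.01 in the PR domain family, and Sirt1 at -0.86 lies apart from the other sirtuins.

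Among the writers, the lysine methyltransferases lay mostly on the lower side. Of 23, 21 had a log2 fold change below 0 and 2 above (Setd3 at 0.09 and Setd8 at 0.05), with a median of -0.12, and 12 (52.2%) had both HT libraries below both WT libraries, against 22.6% of all tested genes. The Kmt2 genes encode the large H3K4 methyltransferases of the MLL family (Kmt2e is a relative without clear activity), and all 5 had both HT libraries below both WT libraries, with none passing the test. They were grouped after their values were seen, so nothing is read from this count against the 22.6% of all genes. Kmt2d, which methylates H3K4 at enhancers, stood at 108 CPM in the male HT and 120 in the female HT, against 150 in the male WT and 148 in the female WT. Its log2 fold change was -0.38 ± 0.10 (SE; edgeR adjusted p = 0.207). Kmt2c, its close paralogue, stood at 87.4 and 98.6 CPM in the male and female HT, against 117 and 122 in the male and female WT, a log2 fold change of -0.36 ± 0.10 (SE; edgeR adjusted p = 0.216).

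The male HT was the lower of the HT pair in both genes. Kmt2b, which acts at promoters, had 82.2 CPM in the male HT and 96.7 in the female HT, against 109 in the male WT and 112 in the female WT (log2 fold change -0.30 ± 0.11, SE; edgeR adjusted p = 0.301). Kmt2a, the founding member, had a log2 fold change of -0.25 ± 0.10 (SE) and Kmt2e -0.16 ± 0.10 (SE). Setd1a and Setd1b, the methyltransferases of the SET1 complexes that carry most promoter H3K4 methylation, had -0.10 ± 0.10 and -0.20 ± 0.12 (SE). The median ratio of the 5 Kmt2 genes was -0.21 between the females and -0.40 between the males. Without the male HT, log2 fold changes were -0.31 for Kmt2d, -0.27 for Kmt2c, -0.19 for Kmt2b, -0.16 for Kmt2a and -0.17 for Kmt2e. Without the female HT they were -0.47, -0.46, -0.43, -0.36 and -0.17 in that order.

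Setd7, which places a single methyl group on H3K4 and on many other proteins, had the highest CPM of the writers, at 256 in the male HT and 242 in the female HT, against 305 in the male WT and 286 in the female WT. Its groups did not overlap, and its log2 fold change was -0.25 ± 0.10 (SE; edgeR adjusted p = 0.378). The H3K36 methyltransferases Nsd1 and Setd2 had -0.13 ± 0.10 and -0.20 ± 0.11 (SE). Suv420h2, which trimethylates H4K20, had -0.32 ± 0.14 (SE), which was -0.15 without the male HT and -0.52 without the female HT. Its paralogue Suv420h1 had -0.13 ± 0.12 (SE). Of the members that place the repressive H3K9 mark, Ehmt1 had -0.12 ± 0.13, Ehmt2 -0.07 ± 0.10, Suv39h1 -0.03 ± 0.14 and Suv39h2 -0.11 ± 0.26 (SE). In all 4 the groups overlapped. The PRC2 subunits Ezh1 and Ezh2 had -0.07 ± 0.10 and -0.04 ± 0.23 (SE), with Ezh2 at 6.56 and 8.34 CPM in HT against 6.32 and 9.17 in WT. Errors of this size do not show that these genes were alike in the 2 genotypes.

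Of 7 acetyltransferases, 4 were below 0 and 3 above. Kat2b (PCAF), a catalytic subunit of SAGA-type complexes, stood at 83.2 CPM in the male HT and 80.7 in the female HT, against 113 in the male WT and 114 in the female WT. Its groups were far apart relative to their spread, at 82.0 ± 1.70 CPM in HT and 113 ± 1.11 in WT (SD, n = 2 each). The difference of -0.47 ± 0.10 on the log2 scale (SE) did not pass (edgeR adjusted p = 0.156). It was between -0.46 and -0.49 with any 1 library left out. Its paralogue Kat2a, which occupies the same place in these complexes, had 75.7 ± 1.45 CPM in HT and 73.5 ± 8.56 in WT (SD, n = 2 each), with overlapping groups. Kat6a, the MOZ acetyltransferase, had a log2 fold change of -0.24 ± 0.11 (SE) and its paralogue Kat6b -0.07 ± 0.13 (SE). Kat7 (HBO1) was on the higher side, with 123 and 128 CPM in HT against 118 and 117 in WT, a log2 fold change of 0.10 ± 0.10 (SE), and Kat5 had 0.04 ± 0.10 (SE).

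The PR domain genes lay on both sides of 0, with 5 of 10 tested genes below 0, and were low in counts. Prdm15 had a log2 fold change of -0.30 ± 0.16 (SE), Prdm4 0.13 ± 0.14 (SE), and Prdm2, the most abundant, -0.05 ± 0.11 (SE). Prdm6, named because it had the largest positive value of any member, rested on 31 and 11 counts in the male and female HT against 6 and 17 in the male and female WT, so its groups overlapped.

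Among the erasers, Sirt1 had the lowest fold change of all members. Sirt1 is the nuclear NAD-dependent deacetylase that acts on histones and on factors such as p53 and the coactivator encoded by Ppargc1a. It stood at 13.6 CPM in the male HT and 16.6 in the female HT, against 27.4 in the male WT and 27.1 in the female WT. The HT libraries were far below the WT libraries in both sexes, with means of 15.1 ± 2.16 CPM in HT and 27.3 ± 0.209 in WT (SD, n = 2 each). The log2 fold change of -0.86 ± 0.16 (SE), a level 0.552 times that of WT, did not pass over all genes (edgeR adjusted p = 0.13). It ran from -1.02 without the female HT to -0.71 without the male HT.

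The other sirtuins lay on both sides of 0, and their difference from Sirt1 was not tested. Sirt3, the main mitochondrial deacetylase, was the single member on the higher side at an unadjusted p under 0.05, with 72.6 and 79.1 CPM in HT against 62.2 and 60.8 in WT, a log2 fold change of 0.30 ± 0.11 (SE; edgeR adjusted p = 0.334). Its exons share 342 bases with Psmd13 and 418 with Ric8a on the opposite strand in GRCm38. Whether strand was used in the counting is not stated, so reads of these genes may be mixed. Other members share bases in this way, such as Kat5 (426 with Rnaseh2c) and Kmt2e (972 with Srpk2). Sirt7 shares 124 bases with Mafg on the same strand. Sirt4, a mitochondrial enzyme, stood at 19.7 CPM in the male HT and 22.1 in the female HT, against 24.1 in the male WT and 31.6 in the female WT. Both HT libraries were below both WT libraries, and the log2 fold change of -0.40 ± 0.15 (SE) was -0.21 without the female WT library. Sirt2 had 205 and 213 CPM in HT against 186 and 199 in WT, a log2 fold change of 0.12 ± 0.10 (SE), in the same direction as the oligodendrocyte markers given above, whose part in it was not tested. Sirt5, Sirt6 and Sirt7, the first mitochondrial and the others nuclear, had overlapping groups and log2 fold changes of 0.08 ± 0.18, -0.02 ± 0.15 and -0.14 ± 0.14 (SE), the last being 0.09 without the female WT library.

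The lysine demethylases had 12 of 15 below 0, with a median log2 fold change of -0.11. Kdm7a, which removes H3K9 and H3K27 methylation, stood at 41.2 and 42.9 CPM in the male and female HT, against 56.0 and 56.6 in the male and female WT. Its groups were clear of each other, and the log2 fold change was -0.42 ± 0.12 (SE; edgeR adjusted p = 0.223), but -0.27 once a trend in length and GC was taken out. Kdm6b, an H3K27 demethylase, had -0.29 ± 0.12 (SE), and Kdm4c, an H3K9 demethylase, had -0.24 ± 0.14 (SE). Kdm1a had 71.2 and 67.6 CPM in HT against 69.5 and 73.0 in WT, and Kdm5a, an H3K4 demethylase, 46.1 and 45.3 in HT against 52.2 and 39.8 in WT. Groups of both genes overlapped. On the higher side, Kdm4d (0.38 ± 0.43, SE) rested on 44 and 19 counts in HT against 25 and 21 in WT, and Kdm8 had 0.14 ± 0.22 (SE).

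The zinc-dependent deacetylases were divided, with 6 of 11 below 0 and 5 above and a median of -0.04. Hdac11 stood at 341 and 343 CPM in HT against 304 and 300 in WT, with both HT libraries above both WT libraries and a log2 fold change of 0.18 ± 0.10 (SE; edgeR adjusted p = 0.526). The class IIa enzymes, which shuttle between nucleus and cytoplasm, lay on both sides of 0. Hdac7 had 42.5 and 46.0 CPM in HT against 53.7 and 56.4 in WT (log2 fold change -0.31 ± 0.12, SE; edgeR adjusted p = 0.349). Hdac9 had 18.1 and 17.4 CPM in HT against 16.7 and 12.8 in WT (0.28 ± 0.17, SE), which was 0.09 without the female WT library. Hdac4 and Hdac5 had 0.14 ± 0.19 and 0.01 ± 0.10 (SE). The class I enzymes Hdac1, Hdac2, Hdac3 and Hdac8, of which the first 3 are the catalytic subunits of the main nuclear corepressor complexes, lay between -0.12 and 0.02. The mostly cytoplasmic class IIb enzymes Hdac6, which acts on tubulin, and Hdac10 had -0.10 ± 0.11 and -0.12 ± 0.15 (SE). The eraser median was -0.10 over all libraries and -0.00407 without the female WT library, where 15 erasers were above 0 and 18 below.

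**Figure D3:**
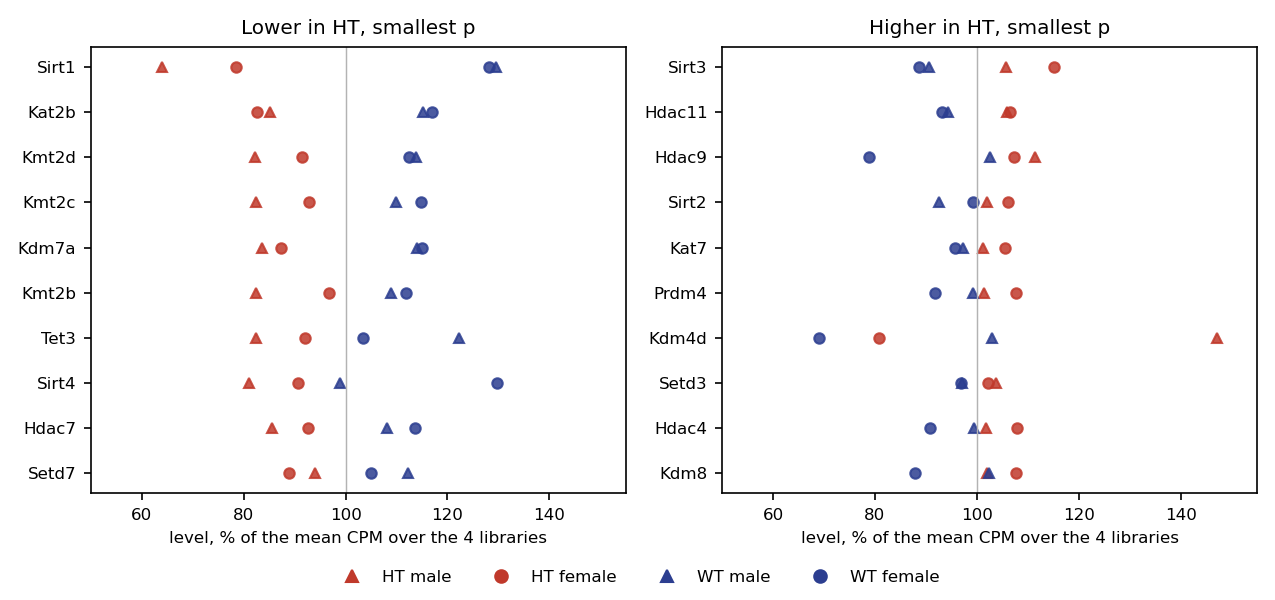
Level in each library as a percentage of the gene's mean CPM over the 4 libraries, for the 10 members of smallest p with lower values in HT (left) and the 10 with higher values in HT (right), with red for HT, blue for WT, triangles for males and circles for females. In Sirt1 the HT libraries, at 13.6 and 16.6 CPM, are far from the WT libraries at 27.4 and 27.1, while the genes on the right differ less, and in Kdm4d and Kdm8 the groups overlap.

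In the DNA methylation group all 6 tested genes had a log2 fold change below 0, with a median of -0.31. Dnmt1 had 72.8 and 78.1 CPM in HT against 76.2 and 79.6 in WT, overlapping groups, and a log2 fold change of -0.04 ± 0.11 (SE). Dnmt3a, the main de novo enzyme of mature neurons, stood at 96.4 CPM in the male HT and 108 in the female HT, against 130 in the male WT and 112 in the female WT, a log2 fold change of -0.24 ± 0.12 (SE; edgeR adjusted p = 0.459). Dnmt3b had 1.73 and 3.01 CPM in HT against 2.73 and 4.07 in WT (-0.54 ± 0.33, SE), which was -0.23 without the female WT library and -0.18 without the male HT. Dnmt3l, which was not tested, had 2 and 8 counts in HT against 1 and 0 in WT.

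The TET genes and Dnmt3a shared a pattern over the libraries in which the male WT was the highest. Other members, such as Kdm2a, Kdm5b and Setd5, also had the male WT highest, so the pattern was not particular to this group. Kdm2a stood at 102 CPM in the male HT and 118 in the female HT, against 126 in the male WT and 114 in the female WT. Tet1 stood at 15.9 CPM in the male HT and 18.7 in the female HT, against 28.2 in the male WT and 19.5 in the female WT. Tet3 stood at 43.5 CPM in the male HT and 48.6 in the female HT, against 64.6 in the male WT and 54.7 in the female WT. The groups of both genes did not overlap, but the female pair was close. The log2 fold change was -0.45 ± 0.20 for Tet1 and -0.37 ± 0.13 for Tet3 (SE; edgeR adjusted p = 0.414 and 0.322). Tet2 had 24.0 and 27.4 CPM in HT against 31.8 and 24.5 in WT, overlapping groups, and -0.12 ± 0.16 (SE). Without the male WT library the values were -0.18 for Tet1, 0.06 for Tet2, -0.25 for Tet3 and -0.13 for Dnmt3a. Without the female WT library they were -0.71 for Tet1, -0.31 for Tet2, -0.49 for Tet3 and -0.36 for Dnmt3a. That fit keeps the male WT, the highest library for these genes, as the lone WT library, so the lower values follow from the choice of library.

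The sexes could be compared by 1 library ratio each. In both sexes the log2 ratio of HT to WT was below 0 in 45 of the 79 tested members and above 0 in 9, against 29.5% and 28.8% of all tested genes. The median ratio was -0.07 between the females and -0.14 between the males. Over the 6 tested genes of DNA methylation it was -0.06 between the females and -0.50 between the males. In Tet1 the ratio was -0.06 between the females and -0.82 between the males, in Tet3 -0.17 between the females and -0.57 between the males, and in Tet2 0.16 between the females and -0.40 between the males. Dnmt3a had -0.05 between the females and -0.44 between the males. In Kat2b the ratios were -0.50 between the females and -0.44 between the males, and in Sirt1 -0.70 between the females and -1.01 between the males.

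How far the genotype effect differed between females and males, tested in a fit that assumes no effect of sex alone, passed the threshold in 0 members (edgeR quasi-likelihood test), where 3 of all tested genes (0.0198%) passed. At an unadjusted p under 0.05 it took in 2 members, Prdm16 and Tet1, or 2.53% of the 79, against 3.55% of all tested genes. Prdm16, a factor of stem and vascular cells, had 8.63 CPM in the male HT and 12.98 in the female HT, against 12.3 in the male WT and 6.69 in the female WT. The difference of its log2 ratios, female minus male, was 1.46 ± 0.40 (SE; edgeR adjusted p = 0.998).

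Females and males themselves differed in 0 members past the threshold (edgeR quasi-likelihood test), where 0.0595% of all tested genes passed, and in 0 at an unadjusted p under 0.05, where 3.82% of all tested genes lay. DESeq2 and limma-voom also called 0. The members of smallest p were Kat8 (MOF), the H4K16 acetyltransferase, with a female over male log2 fold change of 0.30 ± 0.14 (SE), Dnmt3b with 0.68 ± 0.33 (SE) and Ezh2 with 0.44 ± 0.23 (SE), all at an edgeR adjusted p of 0.994. The X-linked members Hdac6, Hdac8 and Suv39h1 had 0.08 ± 0.11, -0.09 ± 0.14 and 0.07 ± 0.14 (SE).

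**Figure D4:**
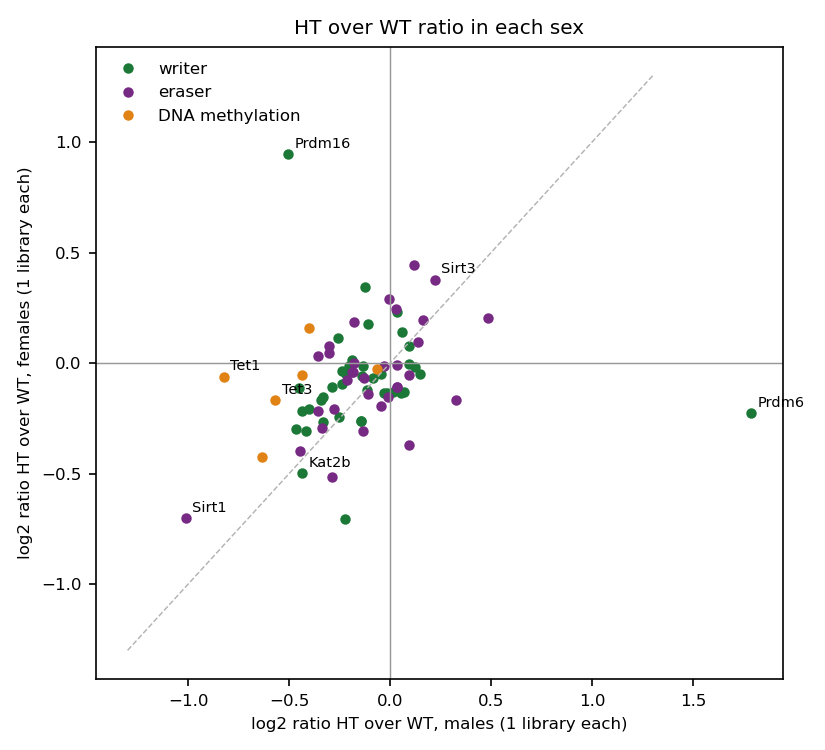
Log2 ratio of HT over WT between the females (vertical axis) against that between the males (horizontal axis) for the 79 tested genes, 1 library of each genotype and sex, with a dashed line where the sexes are equal. Sirt1, at -0.70 in females and -1.01 in males, is lowest along that line, while Tet1, at -0.06 in females and -0.82 in males, and Prdm16, at 0.94 in females and -0.50 in males, lie away from it.

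Many of these enzymes are encoded by long transcripts, and transcript length moved with the fold change in these libraries. The median longest transcript was 4663 bases in the 79 tested members and 3397 in the 14999 tested genes with a known length. Across genes, which are not independent replicates and share the same 4 libraries, Spearman's rho between length and log2 fold change was -0.38 over the 79 members and -0.11 over all genes. Of the members, 46 were in the upper of 3 equal bins of all genes by length (over 4286.67 bases), and 39 of them (84.8%) had a log2 fold change below 0 with a median of -0.14, against 57.0% and a median of -0.04 for all 5000 genes of that bin. In the middle bin 13 of 22 members were below 0 and in the lower bin 6 of 11. With the trend in length and GC content removed from each library, the member median was again -0.11, and 6 members were called, all lower in HT (Sirt1, Kat2b, Kmt2d, Kmt2c, Kmt2b and Tet3), where 3.69% of all genes were called.

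**Figure D5:**
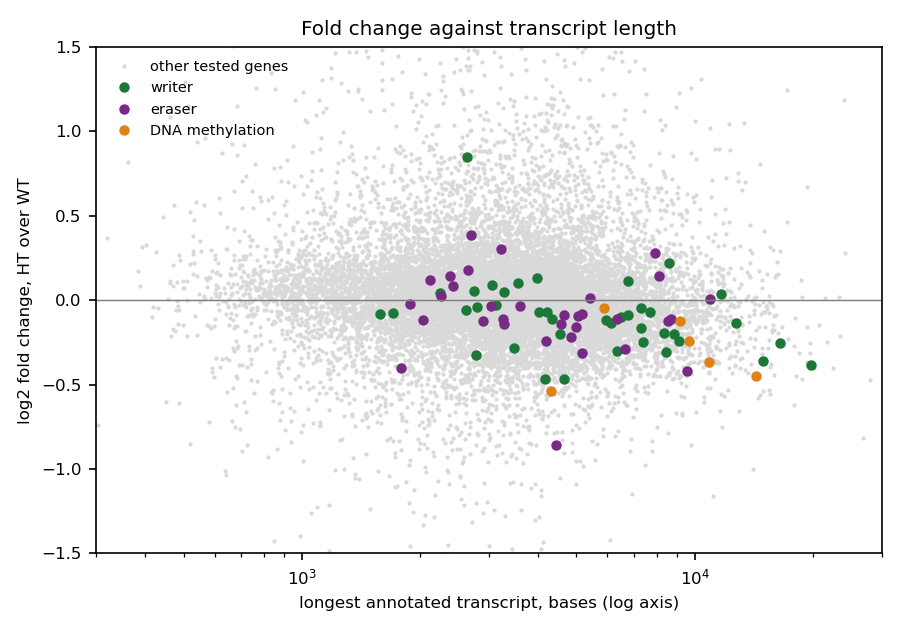
Log2 fold change of HT over WT against the length of the longest annotated transcript (log axis) for tested genes in grey and the 79 members in colour, where genes of larger fold change fall outside the axis. Among members over 4286.67 bases, 39 of 46 lie below 0, with Kmt2d, Kmt2a, Kmt2c and Tet1 the 4 longest.

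The partners of these enzymes were read from lists of complex subunits. None of their tested genes passed between genotypes (edgeR quasi-likelihood test). Their counts stand beside 48.9% of all tested genes below 0 and, at an unadjusted p under 0.05, 6.46% lower and 5.22% higher, or 11.7% in all. Of 10 PRC2 partners 9 had a log2 fold change below 0 (median -0.15, 3 lower at an unadjusted p under 0.05). The core subunit Suz12 stood at 44.7 and 47.8 CPM in HT against 64.5 and 52.6 in WT, a log2 fold change of -0.33 ± 0.13 (SE). Mtf2, a chromatin-targeting subunit, had -0.38 ± 0.15 (SE). Suz12 and Mtf2 had -0.19 and -0.25 without the male WT library, and -0.48 and -0.51 without the female WT library. Of 12 COMPASS partners, which assist the Kmt2 and Setd1 enzymes, 9 were below 0 (median -0.09, 1 lower at that level). Pagr1a among them had -0.39 ± 0.14 (SE), with 169 and 174 CPM in HT against 179 and 281 in WT, so that the female WT library alone stood high, and -0.07 without that library. Ncoa6, a coactivator of the Kmt2c and Kmt2d complexes, had -0.21 ± 0.11 (SE). The COMPASS list had 8.33% at an unadjusted p under 0.05, below the share of all genes.

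Shares at an unadjusted p under 0.05 were 8.70% for the partners of the deacetylases, 16% for those of the acetyltransferases and 14.3% for the methyl-CpG readers and helpers, against 11.7% of all genes. Of 23 partners of the deacetylases 12 were below 0 (median -0.01, 1 lower and 1 higher at an unadjusted p under 0.05). The paralogues Tbl1xr1 and Tbl1x, exchange factors of the NCoR corepressor, had -0.36 ± 0.12 and 0.36 ± 0.15 (SE), the second being 0.22 without the female WT library. Of 25 acetyltransferase partners 15 were below 0 (median -0.05, 4 lower at that level), with Msl2, a partner of Kat8, at -0.37 ± 0.12 (SE) and Brpf1, a scaffold of Kat6a, at -0.29 ± 0.11 (SE). Of 14 tested methyl-CpG readers and helpers 9 were below 0 (median -0.12, 2 lower at that level). Below 0 were 6 of 14 without the male WT library (median 0.06) and 12 of 14 without the female WT library (median -0.14). Ogt, the O-GlcNAc transferase that binds TET enzymes, stood at 226 and 268 CPM in HT against 314 and 322 in WT (-0.37 ± 0.11, SE), and Mbd6 had -0.29 ± 0.10 (SE).

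Writers and erasers that carry other symbols were listed as well. Of 29 such writers 15 were below 0 and 14 above (median -0.05), with 1 lower and 2 higher at an unadjusted p under 0.05. Prmt2, an arginine methyltransferase, stood at 75.6 and 70.2 CPM in HT against 59.1 and 41.8 in WT (0.55 ± 0.13, SE; edgeR adjusted p = 0.158), and had 0.30 without the female WT library. Dot1l, the H3K79 methyltransferase, stood at 89.5 and 94.0 CPM in HT against 100 in the male WT and 131 in the female WT (-0.32 ± 0.11, SE), and had -0.13 without the female WT library. These writers had 10.3% at an unadjusted p under 0.05, below the 11.7% of all genes. Of 11 tested erasers 7 were below 0 (median -0.03, 2 lower at that level). Without the male WT library 4 of 12 were below 0 (median 0.07), and without the female HT 5 of 11 (median 0.02). They were 8 of 11 without the female WT library (median -0.12) and 6 of 11 without the male HT (median -0.00361). Phf2, an H3K9 demethylase, had -0.29 ± 0.11 (SE) and Jmjd1c, of the same Jumonji fold, -0.27 ± 0.10 (SE). Whether these lists differ from the members was not tested.

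Summed over all 81 members, the counts amounted to 4860.3 CPM in the male HT and 5132 in the female HT, against 5351.54 in the male WT and 5381.88 in the female WT. Both HT sums were below both WT sums, a ratio of the means of 0.931. Writers summed to 2673 ± 97.9 CPM in HT and 2952 ± 10.5 in WT, erasers to 2054 ± 73.3 in HT and 2101 ± 39.1 in WT, and DNA methylation genes to 269 ± 20.9 in HT and 314 ± 28.1 in WT (SD, n = 2 each). The writers and the DNA methylation genes had separate groups, while the eraser sums of 2001.82 and 2105.52 CPM in HT overlapped those of 2072.9 and 2128.13 in WT.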

How the data were processed

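Poly(A) RNA from cerebellum was sequenced in 2 HT and 2 WT libraries. Values deposited by the authors are unnormalised read counts for each gene symbol, made with tools that include STAR and featureCounts on mm9, per the submitters' processing notes, without versions or settings. Whether strand was used in counting is not stated. 15 members share exon bases with another gene of the table. The members and lists were chosen with earlier results of these data known. Genes were kept with filterByExpr, which left 15117, and fitted with edgeR 4.0.16 in R 4.3.3 (TMM, robust quasi-likelihood, terms sex and genotype, 1 residual degree of freedom), with two-sided p-values, Benjamini-Hochberg adjustment across every tested gene and a threshold of 0.05. The SE is the log2 fold change divided by the root of F. With a median of 10.6 prior degrees of freedom against 1 residual, the spread in F came mostly from other genes. With 3 counts as the floor, a gene with no count could have up to 0.146 to 0.188 CPM, counting error only. Within-sex ratios used a prior count of 2. Lengths and GC content came from GENCODE M21 (GRCm38), matched by symbol. Named genes were Arid1b, DNA methylation members, the 10 members of smallest p in each direction with at least 1 CPM, the highest per length in each family, the 3 of smallest p for sex, and 2 per partner list; Prdm6, Prdm16 and all others were named after their values were seen. Alternatives were DESeq2 1.42.0, limma-voom (limma 3.58.1), the likelihood ratio test, other scalings and filters, no sex term, removal of the length and GC trend, and leaving out each library. The values of 1 member are not reported here by name. For partner genes, partner lists and marker lists, leaving out libraries was added after seeing the data.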

Additional observations from a re-analysis of the deposited data

How the results depend on the processing

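The sex term matches 1 HT and 1 WT library of each sex. Beyond it, no paired analysis was possible because the labels give no replicate numbers. No member passed with DESeq2, limma-voom, other scalings, a filter of 1 CPM in 2 libraries, no sex term or an adjusted p of 0.1; the likelihood ratio test called 2, no filter 4 and removal of the length and GC trend 6, and leaving out a library gave 0 to 15. The 16 members at an unadjusted p under 0.05 were 5 with DESeq2 (4.79% of all genes) and 2 to 25 with a library left out, where the share of all genes moved as well, with 2.62% beside the 2 members and 28.1% beside the 25. Leaving out a library gave medians of -0.18 to -0.0540 for members, -0.20 to -0.0492 for writers, -0.16 to -0.00407 for erasers and -0.40 to -0.15 for the DNA methylation group. Under the alternatives that kept all libraries the member median was between -0.113 and -0.109. Among the members named by rule, leaving out a library gave both signs for Dnmt1 (-0.11 to 0.00672), Tet2 (-0.31 to 0.0648), Kdm4d (-0.0778 to 0.77), Kat5 (-0.00715 to 0.0931), Kat8 (-0.26 to 0.0925) and Ezh2 (-0.30 to 0.23). Other members changed sign as well, among them Setd8, Suv39h1, Suv39h2, Ehmt2, Kat6b, Prdm16, Sirt5, Sirt7, Kdm5a, Hdac5 and Hdac10. The cause was not tested. Fits without a library have no sex term and assume the lone library varies like the others.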
